A study of Mus musculus with 6 samples.

Results

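The 6 mouse genes of the IκB family that act as inhibitors or cofactors of NF-κB, Nfkbia, Nfkbib, Nfkbie, Nfkbid, Nfkbiz and Bcl3, are described here as binding targets of the NF-κB subunit p65 in epidermal cells. They were chosen by family and are 6 of the 21000 protein-coding genes with a curated transcription start site (TSS) in the RefSeq annotation of mm10. A peak was counted to a gene when the nearest curated TSS to the middle of the peak belonged to it. This gave 20 of 8525 peaks in adult mice (adult), 15 of 4169 in aged mice after control IgG (aged/IgG control) and 22 of 6014 in aged mice after antibodies to IL-17A and IL-17F (aged/anti-IL-17A/F). Where 3 values follow each other, they are in this order. All 6 genes had at least 1 peak in each of the 3 lists, whereas 23% of protein-coding genes had one in adult, 12.9% in aged/IgG control, 17.4% in aged/anti-IL-17A/F and 11.4% in all 3.

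p65 ChIP–seq, which sequences the DNA fragments pulled down with p65 by an antibody, had been done on epidermal cells of C57BL/6J mice. Adult mice were 17 to 25 weeks old and untreated, and aged mice had been injected from 73 weeks of age, for 12 weeks, with either control IgG or a pair of neutralising antibodies to IL-17A and IL-17F. Each condition is 1 list of peaks from the merged reads of 4 mice, so there is no spread between animals and no test between conditions, and the intervals given below are 95% Wilson intervals for counting error alone. The 3 input libraries of the series were not analysed here. Fold enrichment is the authors' ratio of the ChIP signal at a peak to its local background. The number of reads behind a peak is unknown from the lists, and since peaks do not measure expression, the cells could not be checked against markers. In bulk tissue, binding in fewer cells cannot be told apart from less binding per cell. All 8525 peaks of the adult list carry names that begin with Treated, as do all 6014 made after anti-IL-17A/F. The lists were used as the samples' records assign them. If the names of the peaks were right instead, the values given for adult would not be those of adult mice.

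NF-κB dimers are held in the cytoplasm by IκBα, IκBβ and IκBε, the products of Nfkbia, Nfkbib and Nfkbie, and are released when these are phosphorylated and degraded. Freed dimers enter the nucleus and bind a DNA motif of 10 letters, and because they also switch on Nfkbia, the pathway makes its own brake. IκBNS, IκBζ and Bcl-3, the products of Nfkbid, Nfkbiz and Bcl3, are found mainly in the nucleus, where they bind NF-κB subunits on DNA and can either dampen or raise transcription. Nfkbiz is known in keratinocytes as a gene induced by IL-17A.

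At a peak close to a TSS of each of the 6 genes, though not always the strongest peak of the gene, a match to the NF-κB decamer lay within 100 bp of the summit, the point of highest signal. Of all peaks, 28.5% in adult, 37.8% after control IgG and 34.9% after anti-IL-17A/F had such a match. Sites of 30 bases are printed along the direction of transcription of the gene, from the mm10 assembly (GRCm38), with the decamer in capitals. Sites near a TSS come first and the more distant ones after them.
Nfkbia, promoter: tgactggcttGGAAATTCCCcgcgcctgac
Nfkbib, first exon: gggcgtgttgGGGAATTCCCgatagggcgg
Nfkbie, promoter: gcagcaaacaGGGGGATTCCggaggggcgg
Nfkbid, first intron, left: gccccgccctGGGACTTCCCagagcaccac
Nfkbid, first intron, right: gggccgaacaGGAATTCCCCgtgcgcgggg
Nfkbiz, promoter: tttttggcctGGGAATTTCCagcgtgtgga
Bcl3, first exon: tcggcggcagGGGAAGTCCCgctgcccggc
Nfkbia, 2.7 kb upstream: gtaactcctaGGGAATTCCCagggagggcc
Bcl3, 1.6 kb upstream: gggatgtccgGGAAAGCCCCgagctgctgc
Bcl3, 9.5 kb upstream: cagactcccaGGGGGTTTCCacagccaatc

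These decamers are at chr12:55492667-55492676, chr7:28766506-28766515, chr17:45555594-45555603, chr7:30422180-30422189, chr7:30422225-30422234, chr16:55838860-55838869, chr7:19822744-19822753, chr12:55495355-55495364, chr7:19824356-19824365 and chr7:19832263-19832272, in the order printed. The genes Nfkbia, Nfkbib, Nfkbiz and Bcl3 are on the minus strand and Nfkbie and Nfkbid on the plus strand. Nfkbib and the region 2.7 kb upstream of Nfkbia shared the palindrome GGGAATTCCC, which 68 of the 8525 adult peaks (0.798%) held near their summit. Read along the gene, the Nfkbid left site and the Bcl3 first exon site are the same decamer in opposite orientations, as are the Nfkbia and Nfkbiz promoter sites. At Nfkbib a second match overlapped the first by all but 1 base, and such a pair is called 1 place below.

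The stretch of 250 bases before the TSS of Nfkbia at chr12:55492648-55492897, and the one before the second TSS of Nfkbid at chr7:30422156-30422405, are printed in full because the promoter peaks of both genes lie on them. The third sequence, 121 bases at chr16:55822281-55822401 around the summit of a strong Nfkbiz peak with no decamer, is given for contrast. The first and second are from RefSeq's GRCm38 promoter table and the third from the assembly, each along the gene, with decamers in capitals.
Nfkbia promoter: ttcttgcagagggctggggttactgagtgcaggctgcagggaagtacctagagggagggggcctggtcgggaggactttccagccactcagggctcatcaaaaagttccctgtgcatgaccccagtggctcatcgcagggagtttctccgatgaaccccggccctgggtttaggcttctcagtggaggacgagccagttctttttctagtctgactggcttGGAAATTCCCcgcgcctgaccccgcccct
Nfkbid promoter of the second TSS: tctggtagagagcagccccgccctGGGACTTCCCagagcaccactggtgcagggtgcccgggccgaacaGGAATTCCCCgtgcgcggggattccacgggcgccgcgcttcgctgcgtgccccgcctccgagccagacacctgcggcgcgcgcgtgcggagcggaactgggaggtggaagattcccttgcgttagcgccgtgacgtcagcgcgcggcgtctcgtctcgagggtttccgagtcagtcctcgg
Nfkbiz second intron: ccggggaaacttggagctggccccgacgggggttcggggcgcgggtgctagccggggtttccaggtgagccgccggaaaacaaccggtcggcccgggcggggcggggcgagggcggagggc
In promoter windows of 250 bases before to 50 bases after a TSS, 949 of 16853 genes in that table (5.63%) held the decamer. It was present in 4 of the 5 IκB family genes the table lists, Nfkbia, Nfkbie, Nfkbid and Bcl3, and its window for Nfkbib ends before the site in the first exon. Nfkbiz is not in the table.

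Peaks at Nfkbia and Nfkbib, both genes of cytoplasmic inhibitors, were the strongest of the family in every list. Nfkbia, which encodes IκBα, occupies chr12:55489409-55492647. Its promoter peak, at chr12:55491242-55493167, had a fold enrichment of 20.6 in adult, 19.2 after control IgG and 18.7 after anti-IL-17A/F, with ranks of 7, 1 and 5 in the lists. By the −log10 q of the peak caller, at 399, 314 and 351, it stood first in each. It was also among the widest peaks, with 1712, 1482 and 1919 bp and width ranks of 13, 8 and 3, and it reached from upstream of the TSS into the first intron. Inside it lay 5 matches to the decamer at 4 places, centred 269 and 25 bp upstream of the TSS and 685 and about 850 bp downstream. Only the place at 25 bp was within 100 bp of a summit.

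Around this promoter Nfkbia had more peaks than nearly any other gene, with 8 in adult, 6 after control IgG and 8 after anti-IL-17A/F. With Nfkbia itself counted, at least as many were found at 19 of 4836 bound protein-coding genes in adult (0.393%), 10 of 2705 after control IgG (0.37%) and 5 of 3648 after anti-IL-17A/F (0.137%). A further strong region, with its summit 2725 bp upstream at chr12:55494975-55495714 and the palindromic decamer, had values of 12.2 in adult, 12.4 after control IgG and 10.4 after anti-IL-17A/F. The weaker regions of those described held no decamer near their summits, with 1 exception. One 27702 bp downstream had 6.02, 6.08 and 5.40, one 5252 bp upstream 6.14, 3.54 and 5.76, and one 6551 bp upstream 4.44, 3.55 and 3.67. The remaining pair had no peak in aged/IgG control. The region 31656 bp downstream had 3.33 in adult and 3.85 in aged/anti-IL-17A/F, and the one 3696 bp upstream had 2.81 and 2.16, the second with a decamer 77.5 bp from its summit. Thus the peaks of highest signal were in all 3 lists, and those missing from aged/IgG control were among the 3 weakest of the gene in both lists that had them.

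The choice of annotation bears on these counts. A further strong peak within 50 kb of Nfkbia, at chr12:55442895-55444031 and 49309 bp downstream, was counted to Psma6, a subunit of the proteasome, and had 16.4 in adult, 8.91 after control IgG and 13.0 after anti-IL-17A/F. When predicted RefSeq transcripts were added to the curated ones, Nfkbia kept 2 of its 8, 6 and 8 peaks, the promoter and the region 27702 bp downstream, and the others went to the predicted genes Gm36571 and Gm36634.

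Nfkbib, which encodes IκBβ, occupies chr7:28758251-28766644 and had a single peak in each list, at chr7:28765918-28766857. It reached a fold enrichment of 23.6 in adult, 17.5 after control IgG and 22.3 after anti-IL-17A/F. It was the strongest peak of the whole list in adult and in aged/anti-IL-17A/F and the sixth in aged/IgG control. The summit was in the 5′ UTR of the first exon, 164 bp downstream of the TSS in adult, and 11.5 to 30.5 bp from the palindromic decamer. Of the other peaks within 50 kb, the one in the first intron of Sars2, the mitochondrial seryl-tRNA synthetase, had 9.90, 4.66 and 6.83, and 3 near Hnrnpl, an RNA-binding protein, were in the adult list alone with 2.47 to 3.07.

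Nfkbie, which encodes IκBε, occupies chr17:45555700-45563169 and had a peak at its promoter in every list. Its promoter peak, at chr17:45555249-45556064 with the summit 84 bp upstream of the TSS in adult, had a fold enrichment of 16.9 in adult, 7.89 after control IgG and 10.3 after anti-IL-17A/F. Its ranks were 31, 291 and 185, or percentiles of 99.7, 93.0 and 96.9, where the peak of highest fold enrichment is at 100. By −log10 q the lists were closer together, with ranks of 41, 106 and 77 and percentiles of 99.5, 97.5 and 98.7. The decamer was 1.5 to 17.5 bp from the summit, and an AP-1 match was within 100 bp of the summit in each list. In aged/anti-IL-17A/F there were 2 more peaks in the first intron, 1878 bp and 2402 bp downstream of the TSS, with 4.19 and 2.82. Each had a decamer within 21.5 bp of its summit. Neither region had a peak in adult or aged/IgG control, where the closest peak was the promoter itself. The one at 1878 bp was at percentile 63.49 of its list by fold enrichment and 56.7 by −log10 q. The one at 2402 bp was weak, at 15.98 and 7.75, and 300 bp wide. Of all aged/anti-IL-17A/F peaks, 85.6% overlapped a peak of adult and 59.9% one of aged/IgG control. Whether the intron peaks differ between conditions was not tested. Beyond the gene, a peak near Slc35b2, a sulphate-donor transporter of the Golgi, had 7.64, 5.83 and 5.43 and one in Hsp90ab1, a chaperone, 3.07, 2.76 and 3.01.

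Among the nuclear members, Nfkbid had the simplest pattern. It encodes IκBNS, occupies chr7:30421731-30428746 and had 1 peak in each list, at chr7:30421649-30422520. This peak had a fold enrichment of 7.81 in adult, 9.89 after control IgG and 10.4 after anti-IL-17A/F, with ranks of 667, 110 and 180. It was the only region of the family with all 3 lists in which adult had the lowest fold enrichment. By −log10 q its ranks were 261, 144 and 144, and the percentiles of 97.0, 96.6 and 97.6 no longer put adult lowest. The summit was in the first intron of the longest transcript, 480 bp downstream of its TSS and 195 bp upstream of the second TSS in aged/anti-IL-17A/F, and the nearer of the pair of decamers stood 0.5 to 18.5 bp from the summit. No other peak lay within 50 kb.

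Nfkbiz, which encodes IκBζ, occupies chr16:55811377-55838641 and had peaks at both of its TSSs. The one at the upstream TSS, at chr16:55838523-55839294, had 10.6 in adult, 5.46 after control IgG and 8.34 after anti-IL-17A/F, and its decamer lay 0.5 to 12.5 bp from the summit. The one at the TSS of the short transcript, in the second intron of the longer one at chr16:55821712-55822677, had 8.43, 5.58 and 7.59. This peak held no decamer anywhere in its width, and 3 GC boxes stood near its summit in each list. The strongest Nfkbiz peak ranked 262 in adult, 776 after control IgG and 360 after anti-IL-17A/F, so that in aged/IgG control it was at percentile 81.4, the lowest of any of the 6 genes in any list. The strongest peak was the one at the upstream TSS in adult and aged/anti-IL-17A/F and the one at the short transcript in aged/IgG control, where the upstream TSS ranked 822. The pair was close there, and by −log10 q the order in aged/IgG control turned round, with the upstream TSS at rank 526 and percentile 87.4 and the short transcript at rank 636. By that measure too Nfkbiz in aged/IgG control had the lowest percentile of the 6 genes in any list. Further peaks lay past the end of the gene. One 49222 bp from the nearer TSS had 4.51 in adult and 2.64 in aged/anti-IL-17A/F, one at 37408 bp had 4.44 in adult alone, the adult pair being at percentiles 70.4 and 69.4, and one at 33714 bp had 3.44 in aged/anti-IL-17A/F alone. None of the 3 had a peak in aged/IgG control.

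Bcl3, the nuclear partner of p50 and p52, occupies chr7:19808462-19822755 and had 5 peaks in adult, 4 after control IgG and 5 after anti-IL-17A/F. With Bcl3 itself counted, at least as many were found at 122 bound genes in adult (2.52%), 60 after control IgG (2.22%) and 54 after anti-IL-17A/F (1.48%). Its strongest peak was not at the TSS but 1577 bp upstream, at chr7:19823861-19824808, with 14.9 in adult, 10.5 after control IgG and 11.7 after anti-IL-17A/F and ranks of 68, 88 and 114. The peak in the first exon, with its summit 36 bp downstream of the TSS in the 5′ UTR, was weaker in every list, at 6.15, 4.29 and 5.16. A second upstream region, 9486 bp away, had 9.81, 6.60 and 5.73. One at 4306 bp had 5.06, 3.53 and 4.15, and one at 8160 bp had 3.29 in adult and 3.42 in aged/anti-IL-17A/F and no peak in aged/IgG control. All of these but the last had a decamer within 100 bp of the summit. With predicted transcripts added, Bcl3 kept the exon peak and the one 1577 bp upstream, and the rest went to Gm34891. Inside Bcl3 itself, 3 regions near the noncoding gene Gm16174 were counted to that gene. The strongest, in the second intron of Bcl3, had 4.48, 3.48 and 4.57, one had 2.59 in adult alone and one 2.61 in aged/anti-IL-17A/F alone. Near Cblc, a ubiquitin ligase of the Cbl family, a peak had 3.98 in adult and 3.41 in aged/anti-IL-17A/F, and near Ceacam16, an adhesion molecule of the inner ear, one had 2.95 in aged/anti-IL-17A/F.

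**Figure D1:**
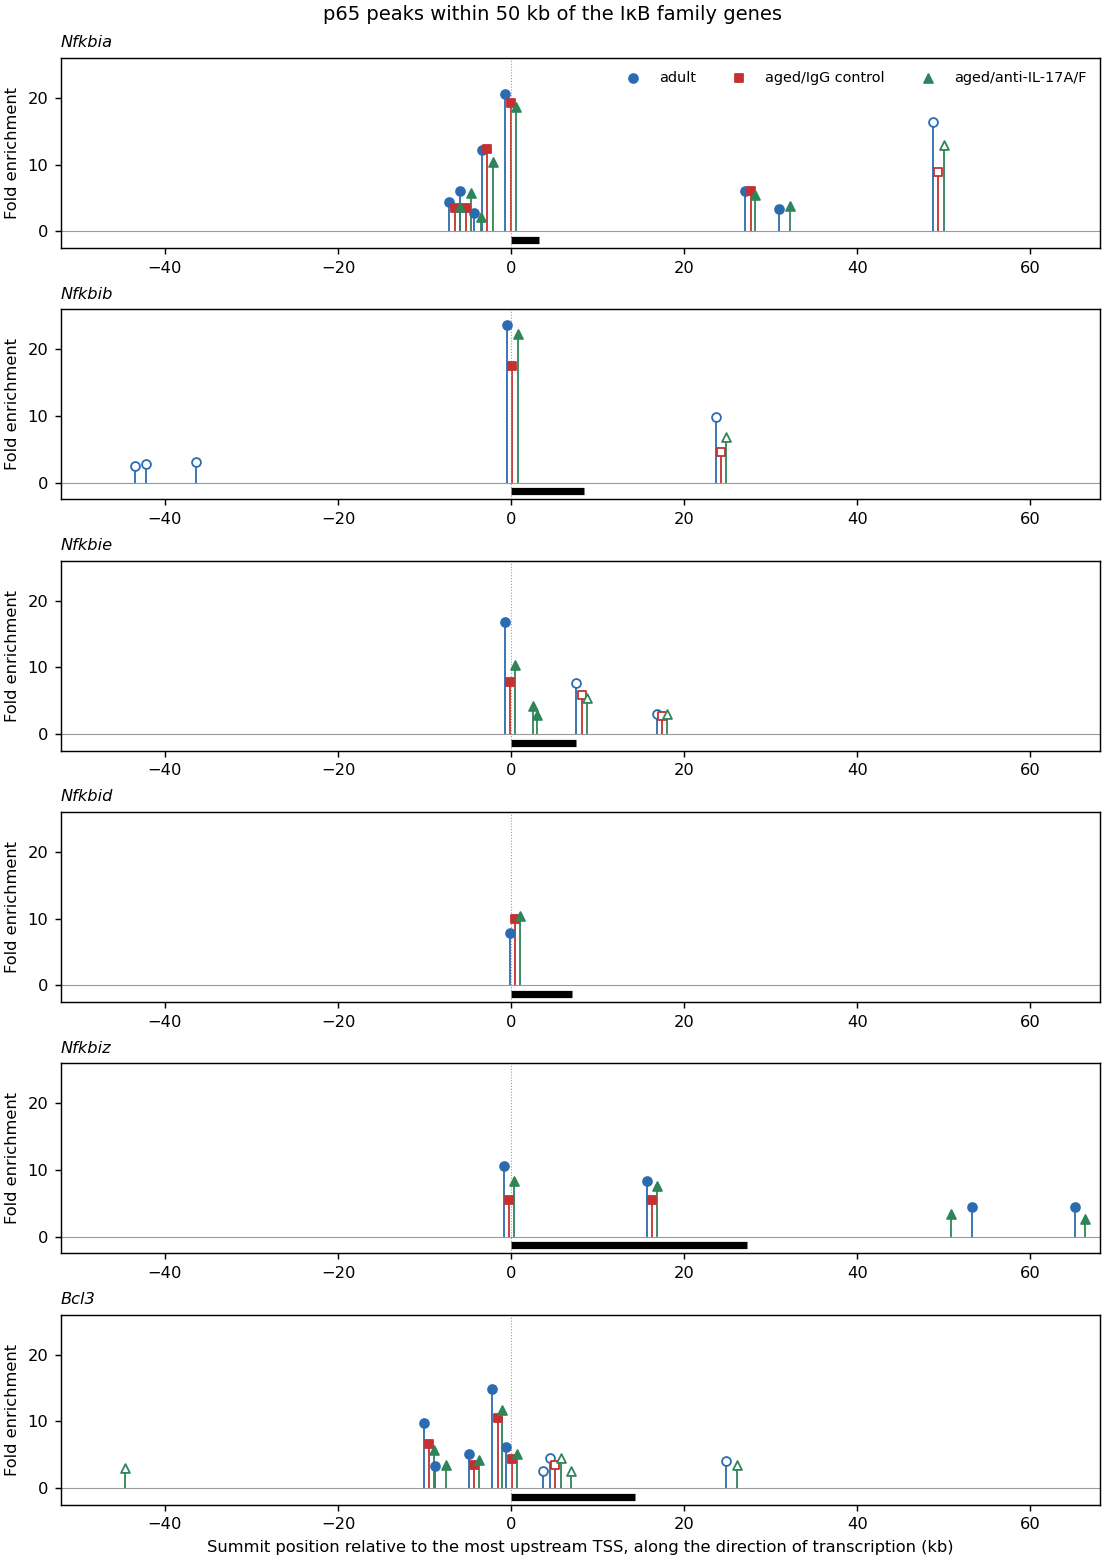
p65 peaks within 50 kb of any TSS of each IκB family gene. The horizontal axis is the summit's distance in kb from the most upstream TSS along the direction of transcription, the vertical axis fold enrichment, filled markers peaks counted to the gene, open markers peaks counted to another gene, and black bars the genes; adult is shifted slightly left and aged/anti-IL-17A/F slightly right (under 1 kb) to keep markers apart, and 1 region of Nfkbia is not shown. Nfkbib and Nfkbid have a single filled cluster at the TSS, whereas Nfkbia and Bcl3 have several and the strongest Bcl3 peak, 14.9 in adult, lies upstream of its TSS.

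Ranked within the lists, the peaks of the 6 genes were stronger than most. The typical (median) fold enrichment was 6.98 in adult, 6.60 after control IgG and 5.56 after anti-IL-17A/F, against 3.60, 3.80 and 3.69 over all peaks. The median percentiles were 88.7, 88.3 and 80.9. Peaks above the 95th percentile numbered 8 of 20, 6 of 15 and 7 of 22, and those below the median of the list 3, 3 and 6. Of the genes with a peak above the 99th percentile, 4 in adult (Nfkbia, Nfkbib, Nfkbie and Bcl3) and 2 in each aged list (Nfkbia and Nfkbib) belonged to the family, where the share of all protein-coding genes was 0.348% in adult, 0.152% after control IgG and 0.238% after anti-IL-17A/F. Peaks of the family were also wider, with a median of 681.5, 720 and 576.5 bp against 452, 431 and 444 bp, and 7 of them in each list had their middle within 1 kb of a TSS, where 36.9%, 33.1% and 33.7% of all peaks did.

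**Figure D2:**
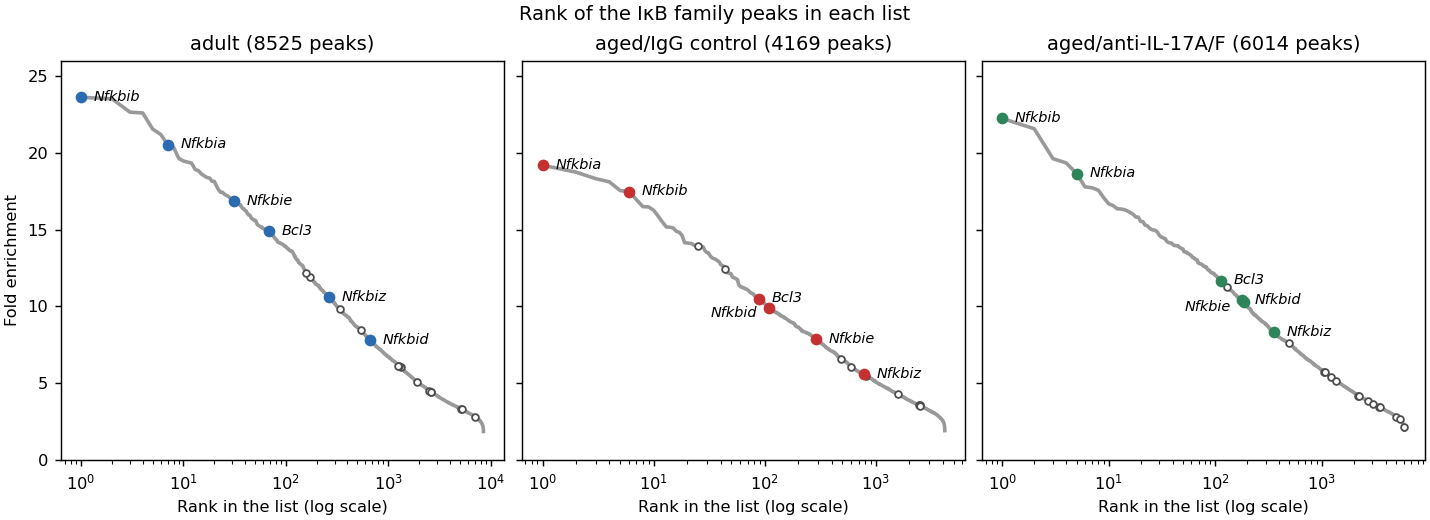
Fold enrichment of every peak against its rank in its list, on a logarithmic rank axis, for the 3 lists (grey line). Coloured points are the strongest peak of each IκB family gene and open points their other peaks: Nfkbib and Nfkbia sit among the first 7 of each list, and the strongest Nfkbiz peak is at rank 262 of 8525, 776 of 4169 and 360 of 6014.

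Other genes of the pathway, listed by role, were compared in the same way. All 5 genes of the NF-κB subunits had a peak in each list, with 10 peaks in adult, 8 after control IgG and 9 after anti-IL-17A/F. Among them Nfkb2, which encodes p100 and p52, had 18.9, 16.5 and 19.6 at its strongest peak, and Relb, a partner of p52, 16.8, 13.5 and 15.8, all above the 99th percentile. Of 6 genes of the kinases that act upstream of IκB, including the regulatory subunit Ikbkg, 3 had a peak in adult, 3 after control IgG and 4 after anti-IL-17A/F, none of them above that percentile. A list of 13 other regulators, put together as brakes on the pathway, had 5, 4 and 4 genes with a peak. It holds Btrc and Fbxw11, which belong to the ligase that marks IκB for degradation and so act the other way, and without them 4 of 11 had a peak in each list. Tnip1, a ubiquitin-binding partner of A20, had 22.6, 17 and 14.1. Cyld, a deubiquitinase, had 18.5, 10.1 and 14.4, and Tnfaip3, the gene of A20 itself, 13.8, 14.2 and 21.6. Thus the family and the subunits had a peak at every gene. The kinases and the brakes had one at only some genes, against 23%, 12.9% and 17.4% of all protein-coding genes. Over genes with a peak, the median percentile of the strongest peak was 99.4, 97.6 and 97.6 in the family. It was 98.5, 97.6 and 98.9 in the subunits, 61.3, 51.4 and 56.7 in the kinases, and 99.3, 98.6 and 99.4 in the 11 brakes.

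The decamer was frequent under the peaks of the family. Searched on both strands in the 100 bp to each side of a summit, it was found in 12 of 20 adult peaks (60%, interval 38.7 to 78.1), 11 of 15 after control IgG (73.3%, 48.0 to 89.1) and 16 of 22 after anti-IL-17A/F (72.7%, 51.8 to 86.8). Over all peaks the shares were 28.5%, 37.8% and 34.9%. The family's peaks were stronger than most, and strong peaks held the decamer more often over the whole lists. Above the 95th percentile it was in 8 of 8, 6 of 6 and 7 of 7 of the family's peaks and in 64.6%, 69.4% and 69.1% of all peaks. From the summit, the nearest decamer centre was at a median of 22, 12.5 and 19.5 bp, against 23.5, 24.5 and 23.5 bp over all peaks. Over the whole width of a peak, at least 2 matches, overlapping ones included, were in 5, 5 and 8 of the family's peaks and in 8.72%, 11.6% and 10.6% of all. The family's peaks are wider, which gives more room for matches, and the part of width was not tested. These peaks share regions between the lists, so the 3 shares are not independent of each other.

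Other motifs gave a mixed picture. GC boxes (GGGCGG) were near the summit in 11 of 20 adult peaks (55.0%), 9 of 15 after control IgG (60%) and 10 of 22 after anti-IL-17A/F (45.5%), against 25.9%, 23.0% and 23.4% of all peaks. The sequence within 100 bp of the summit was also richer in G and C, with a median of 59.5%, 60.7% and 60.4% against 54.7%, 53.7% and 53.7%, and the part of base composition in the motif shares was not tested. The AP-1 motif (TGANTCA), bound by Fos and Jun, was in 3, 2 and 3 peaks, a share close to the 13.2%, 14.1% and 14.4% over all peaks. All of these were at the Nfkbie promoter and at the Bcl3 regions 1577 bp and 8160 bp upstream. The C/EBP motif (TTGCNNAA), of factors active in keratinocyte differentiation, was in 0 of 20, 0 of 15 and 1 of 22 peaks, where 9.81%, 9.57% and 9.63% of all peaks held it. With so few peaks, the upper bounds of 16.1%, 20.4% and 21.8% include those shares. A match is a run of letters and not a measured site.

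**Figure D3:**
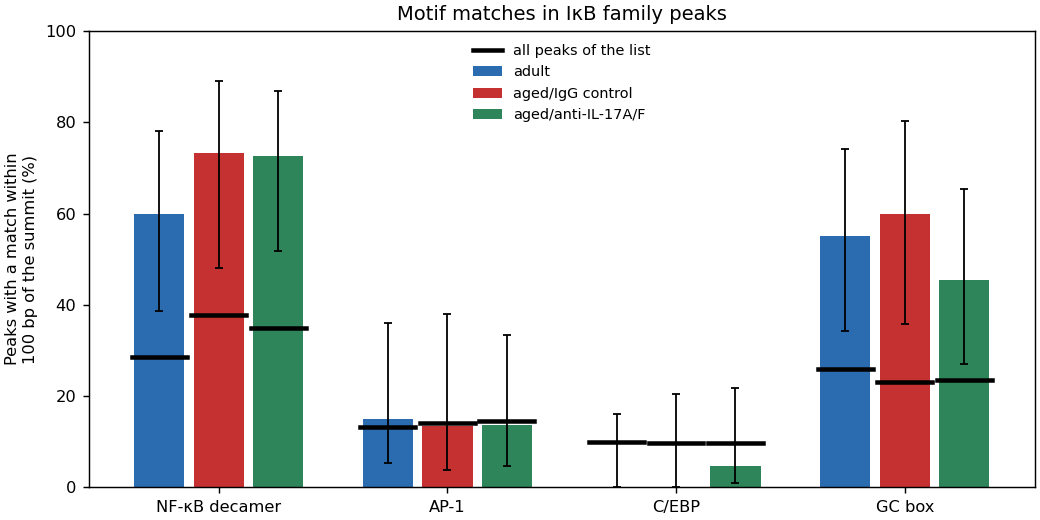
Share of IκB family peaks with each motif within 100 bp of the summit, in percent, by list; error bars are 95% Wilson intervals for counting error, and black lines are the share over all peaks of the list. The decamer is in 60 to 73.3% of the family's peaks, above the lines in all 3 lists, and the AP-1 bars are close to their lines.

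Between conditions, the question was whether the family's peaks were the same ones. Every peak of the family in aged/IgG control, 15 of 15, overlapped a peak of adult and one of aged/anti-IL-17A/F, where 93.3% and 86.6% of all aged/IgG control peaks did. Over aged/IgG control peaks in the same deciles of fold enrichment the shares were 98.3% and 96.6%, or 14.7 and 14.5 of 15, so that the family's count was near that of peaks of like strength. In adult, 15 of 20 (75.0%) overlapped a peak of aged/IgG control and 19 of 20 (95%) one of aged/anti-IL-17A/F, against 45.5% and 60.4% of all adult peaks. In aged/anti-IL-17A/F, 19 of 22 (86.4%) overlapped a peak of adult and 15 of 22 (68.2%) one of aged/IgG control, against 85.6% and 59.9%. Strong peaks are shared more often, and over adult peaks in the same deciles of fold enrichment the shares were 79.8% with aged/IgG control and 86.8% with aged/anti-IL-17A/F. For aged/anti-IL-17A/F peaks in the same deciles they were 92.6% with adult and 77.9% with aged/IgG control, both above the family's own. Set against peaks of like strength, the family's sharing with aged/IgG control was 15 of 20 in adult where 16 would match, and 15 of 22 in aged/anti-IL-17A/F where 17.1 would.

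Merged over the lists, the peaks of the family made 23 regions, of which 15 (65.2%) were in all 3 lists, 4 in a pair of lists and 4 in 1 list. Of all 9513 regions, 36.6% were in all 3. None of the 8 regions missing from a list had a peak in aged/IgG control. That is common over the whole lists. With 4169 peaks in aged/IgG control and 3486 regions in all 3 lists, few other regions can hold a peak there. Fold enrichments were 2.81 to 4.51 in the 5 found in adult and 2.16 to 4.19 in the 7 found in aged/anti-IL-17A/F, and percentiles ran from 0.67 to 70.4, the highest being that of an Nfkbiz region in adult. The aged/IgG control list was the shortest, so each list was also limited to its 4169 peaks of highest fold enrichment. The family then had 17, 15 and 19 peaks, and 15 of 17 (88.2%) in adult and 15 of 19 (78.9%) in aged/anti-IL-17A/F overlapped a peak of aged/IgG control, against 73% and 72.9% of all peaks. At equal list length, 2 of the family's peaks in adult and 4 in aged/anti-IL-17A/F lacked a partner there, a smaller share than among all peaks. Peaks were not matched for strength in this comparison. In the 15 regions with all 3 lists the summits lay close together, with a median range of 31 bp and a largest of 90 bp, against a median of 45 bp over all such regions.

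Of the same 15 regions, adult had the highest fold enrichment in 11, aged/IgG control in 3 and aged/anti-IL-17A/F in 1. Over all 3486 regions with 3 lists the shares were 61.2%, 11.2% and 27.6%. The 3 regions highest after control IgG were all at Nfkbia, and the one highest after anti-IL-17A/F was at Nfkbid. Aged/IgG control was lowest in 9 of the 15 (58.2% of all regions), aged/anti-IL-17A/F in 5 (28.1%) and adult in 1 (13.7%).

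For adult over aged/IgG control, the ratio of fold enrichments had a median of 1.42 over the family's 15 regions and 1.25 over all 3486. It was at least 1.5 in 4 of the 15, where 23.6% of all regions passed, a share close to that of the family. These were the Nfkbie promoter at 2.14, the upstream TSS of Nfkbiz at 1.94, the Nfkbia region 5252 bp upstream at 1.73 and the second TSS of Nfkbiz at 1.51. The first is at percentile 98.0 of all regions and the second at 95.6. At the other end, the Nfkbid peak had 0.79, at percentile 3.7, and the Nfkbia promoter 1.07, at percentile 27.0. Across the family the ratio thus ran from 0.79 to 2.14.

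For aged/anti-IL-17A/F over aged/IgG control, the median ratio was 1.11 over the family and 1.11 over all regions. It reached 1.5 in 2 of the 15, against 10.3% of all, namely the Nfkbia region 5252 bp upstream at 1.62 and the upstream TSS of Nfkbiz at 1.53. The Nfkbia promoter had 0.97 and the Nfkbid peak 1.05. For adult over aged/anti-IL-17A/F, the medians were 1.17 and 1.13, and 2 of the 15 reached 1.5, against 13.9% of all. They were the Bcl3 region 9486 bp upstream at 1.71 and the Nfkbie promoter at 1.64, while the Nfkbid peak had 0.75. These comparisons share lists and have no replicate check. When each ratio was divided by its median over all regions, 2, 0 and 1 of the 15 reached 1.5 in the 3 comparisons, against 5.71%, 4.56% and 6.4% of all regions, Nfkbie and the upstream TSS of Nfkbiz being the pair left in adult over aged/IgG control. The Nfkbid peak, so divided, had 0.63 in adult over aged/IgG control and 0.67 in adult over aged/anti-IL-17A/F.

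**Figure D4:**
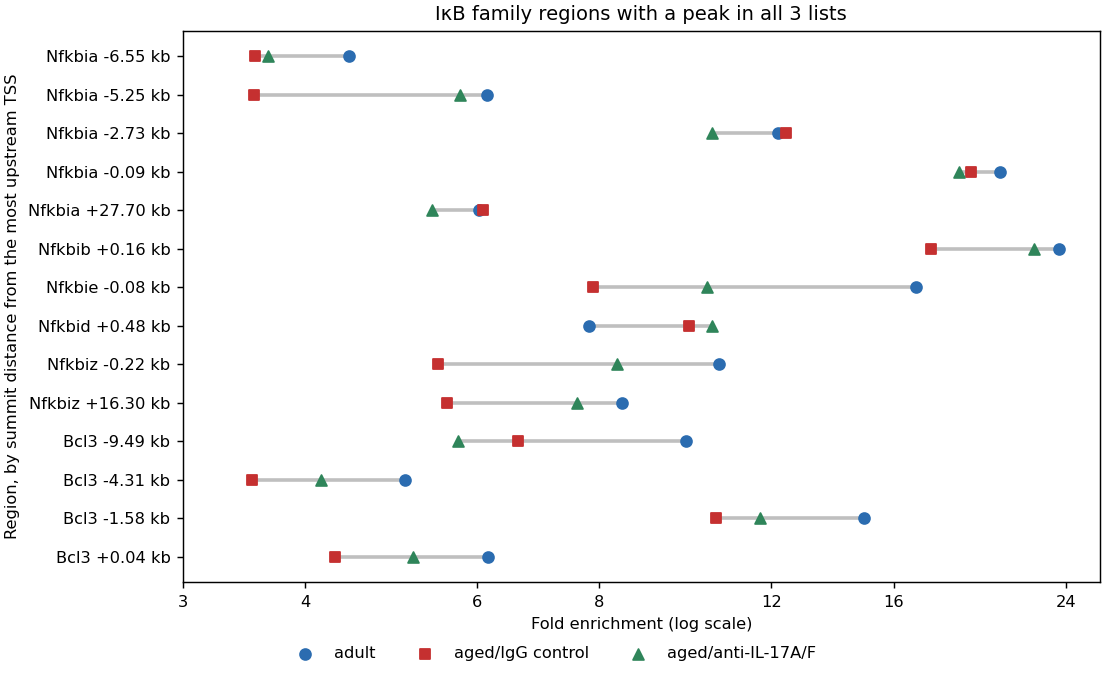
Fold enrichment, on a logarithmic axis, in 14 of the 15 regions of the IκB family with a peak in all 3 lists; each row is a region, named by the gene and the distance of its summit from the most upstream TSS, and each point is 1 list. The widest span is at the Nfkbie promoter, from 7.89 in aged/IgG control to 16.9 in adult, and at the Nfkbia promoter the 3 points lie between 18.7 and 20.6.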

How the data were processed

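Reads had been trimmed by the authors (Trimmomatic 0.36) and mapped to mm10 (Burrows–Wheeler aligner). The 4 mice of a condition were then pooled, freed of duplicates and downsampled to the same target number of reads, and MACS2 called the peaks of each pool. Columns of the deposited lists hold a fold enrichment, which is the ratio of signal over local background, a p-value and a q-value as −log10, a score that was not used, and the summit. Merging the mice leaves no spread, and a weak peak can be called in one pool and missed in another. Whether the inputs entered peak calling is not given in the sources used here.

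Each peak was assigned from its middle to the nearest of all curated TSSs of protein-coding and other genes in RefSeq's GRCm38 annotation. Overlap meant at least 1 bp. Ranks were taken within a list by fold enrichment. The NF-κB decamer, AP-1, C/EBP and GC box motifs were sought on either strand up to 100 bp from the summit, and overlapping matches were kept. Shares have 95% Wilson intervals. No test was made, since each condition is 1 list. The genes named were the 6 members, the genes nearest to any peak within 50 kb of them, and pathway genes with a peak above the 99th percentile; Ikbkg, Btrc and Fbxw11 fall outside this rule and were named, after their values were seen, for their roles only; the members and the lists were chosen with earlier results of these data known. Alternatives were other thresholds, rules of annotation, overlaps and windows, and, added after the data were seen, the exchange of the lists for adult and aged/anti-IL-17A/F, a median-centred ratio and a threshold of 2. Python 3.11.15, numpy 2.4.6, pandas 2.3.3, scipy 1.17.1, pysam 0.24.0, bedtools 2.31.1 and matplotlib 3.10.9 were used. Assignment to the nearest TSS and overlap were tested on adult peaks moved by random distances. The decamer search was tested on random sequences with planted matches, and the other steps were not tested. One region of Nfkbia is not reported here and enters the counts only.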

Additional observations from a re-analysis of the deposited data

How the results depend on the processing

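Of 168 values recomputed under other settings, 147 stayed within the limit set for them, which was the 95% interval for shares and percentiles and 1.5 times for counts. Part of these values could hardly move. No strongest-peak percentile changed when the summit replaced the middle or when all peaks within 50 kb were taken. The intervals for shares are wide, since they rest on 15 to 22 peaks. With predicted transcripts added, the peaks counted to the family fell to 11 in adult, 9 after control IgG and 13 after anti-IL-17A/F, all losses being at Nfkbia and Bcl3. Regions at least 1.5 times higher fell, with median-centred ratios, to 2 for adult over aged/IgG control, 0 for aged/anti-IL-17A/F over aged/IgG control and 1 for adult over aged/anti-IL-17A/F, where 5.71%, 4.56% and 6.4% of all regions passed, and, with a threshold of 2, to 1, 0 and 0, where 3.24%, 0.803% and 1.29% did. Ranking by −log10 q changed 17 of the 18 percentiles of strongest peaks, by at most 6.0, and 12 moved beyond their intervals. Exchanging the lists for adult and aged/anti-IL-17A/F exchanges their values and leaves aged/IgG control with the fewest peaks. No paired analysis was possible because each condition is 1 list from merged mice, and for the same reason no replicate could be left out. The pools were downsampled to the same target, but the number of reads behind each peak is unknown. A peak missing from a list therefore does not show that p65 was absent.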
